A study of Mus musculus with 6 samples.

Results

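The measurements described here compare kidney CD4+ T cells of ischemic mice (IR group) with kidney CD4+ T cells of normal mice (control group), gene by gene, and ask which changes were larger in CD4+ than in CD8+ or double negative (DN, CD4- CD8-) T cells. Members were chosen by a fixed rule: a barcode was kept when it had at least 500 detected genes, at most 20% mitochondrial UMIs and at least 1 UMI summed over Cd3d, Cd3e and Cd3g, the genes of the CD3 chains that accompany the T cell receptor. The rule kept 9518 control CD4+ cells and 10301 IR CD4+ cells, together 19819 of the 49177 cells kept over all 6 libraries and of the 54039 barcodes in the files. All mice were male, wild type C57BL/6J animals of 7 to 8 weeks. In the IR group both renal pedicles were clamped for 30 min and then released, and the control group was labelled normal, with no clamp. Kidneys were digested with collagenase, mononuclear cells were taken from a Percoll gradient, and cells positive for CD45 and TCRβ were sorted into CD4+, CD8+ and DN fractions. Each fraction of each group was 1 droplet library with no replicate, and how many mice were pooled in a library and when after the clamp the cells were taken are not given in the sources used here.

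CD4+ T cells recognise peptides on MHC class II and steer other immune cells through cytokines and cell contact. In the kidney they are a minority population that includes resident memory cells, recirculating naive or central memory cells and Foxp3+ regulatory cells, and ischemia followed by reperfusion is a sterile injury in which T cells take part in both damage and repair. Granzymes are serine proteases of cytotoxic granules that are best known from CD8+ T cells and natural killer cells and are also made by some CD4+ cells.

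Since each group was 1 library, no test was possible for any comparison, and the text uses "rose" and "fell" only for a summed level that differed at least 2-fold between the IR and the control library. Levels are CPM, the UMIs of a gene scaled to a fixed total of UMIs, summed over all kept cells of a library, after mitochondrial genes, ribosomal protein genes and Malat1 were taken out of the totals. Brackets give 95% intervals, exact Poisson for levels and log2 ratios and Clopper-Pearson for cell shares. All of them cover counting error only and say nothing of the spread between mice. A lower summed level can come from fewer cells of a type or from less RNA per cell, and these cannot be told apart in the sums.

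Depth differed between the groups in the same direction for every sorted fraction. The control CD4+ library held 58710180 retained UMIs and the IR CD4+ library 17572252. The median of retained UMIs per cell was 5669 in control and 1478 in IR CD4+ cells. Over all features the medians were 7267 and 2441 UMIs. The other control libraries held 55059968 and 69755260 retained UMIs and the other IR libraries 7390608 and 4816500. Ribosomal protein genes took 16.7% of the UMIs of control CD4+ cells and 35.3% of those of IR CD4+ cells. The control files were made with Cell Ranger 5.0.1 and the IR files with 6.0.1 by their headers, so condition, software version and depth cannot be told apart within any 1 pair of libraries. The CD8+ and DN pairs carried differences in the same direction but not of the same size, with ribosomal shares of 22.8% and 42.1% in CD8+ and 16.8% and 27.7% in DN cells, so they are not an equal control for depth. Of the kept barcodes, 53 of the control CD4+ library (0.557%) and 33 of the IR CD4+ library (0.320%) were also found in another library of the same condition, and leaving them out changed no call of a named gene.

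The sort label was checked first. Cd4 stood at 202 CPM in control and 147 CPM in IR CD4+ cells, against 0.127 to 0.623 CPM in the CD8+ and DN libraries. Cd8a had 3 UMIs in the control CD4+ library and none in the IR CD4+ library, where 3 counts would be 0.171 CPM, and stood at 853 and 405 CPM in the CD8+ libraries. Cd8b1 was present at 3.54 CPM in control and 5.80 CPM in IR CD4+ cells. Cd3e was 598 CPM in control and 804 CPM in IR, and Trac, the constant region of the T cell receptor alpha chain, 819 and 980 CPM. Of the 12 defining T and CD4 markers 10 were measured in CD4+ cells (at least 10 CPM in 1 of the 2 libraries), none of these rose or fell, and their median log2 ratio was 0.21. The cells had been kept for carrying Cd3 UMIs, so the level of the Cd3 genes is no check of the label, which rests here on Cd4, Cd8a and Trac.

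The 3 genes given as markers of the population behaved differently. Ccr7, the receptor that guides naive and central memory cells to lymph nodes, stood at 31.2 CPM in control and 237 CPM in IR CD4+ cells (7.58-fold), and at 80.4 and 643 CPM in CD8+ cells (7.99-fold). Its levels in DN cells, 1.03 and 9.14 CPM, were too low to count as measured. Il7r, the interleukin 7 receptor alpha chain, went from 252 to 844 CPM in CD4+ cells (1.75), from 358 to 709 CPM in CD8+ cells (0.98) and from 142 to 677 CPM in DN cells (2.25). Foxp3, the transcription factor of regulatory T cells, was 19.4 CPM in control and 28.2 CPM in IR CD4+ cells (0.54 [0.38 to 0.69]), short of 2-fold, and at most 0.406 CPM in the other fractions. The Foxp3 log2 ratio was 0.19 when mitochondrial and ribosomal genes and Malat1 stayed in the totals, and 1.54 when barcodes with at least 2 UMIs of other cell types were left out, a step that removed 42.4% of control and 13.2% of IR CD4+ cells.

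Over all genes, 9078 were measured in CD4+ cells. Of these 659 rose (7.26%) and 1306 fell (14.4%), and the median log2 ratio was -0.27. With mitochondrial and ribosomal genes and Malat1 kept in the totals the split was 334 higher and 2491 lower, with the median moved by a further -0.36, so the number of falls depends on that choice. The median was -0.39 in the CD8+ pair and -0.27 in the DN pair. Both CD4+ directions were shared to a large extent: of the 8580 genes measured in all pairs, 561 rose and 1200 fell in CD4+ cells, and 316 and 640 of them also rose or fell in both other pairs. Another 89 rose and 146 fell past 2-fold in the CD4+ pair alone. All comparisons between the pairs below rest on separate control libraries.

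**Figure D1:**
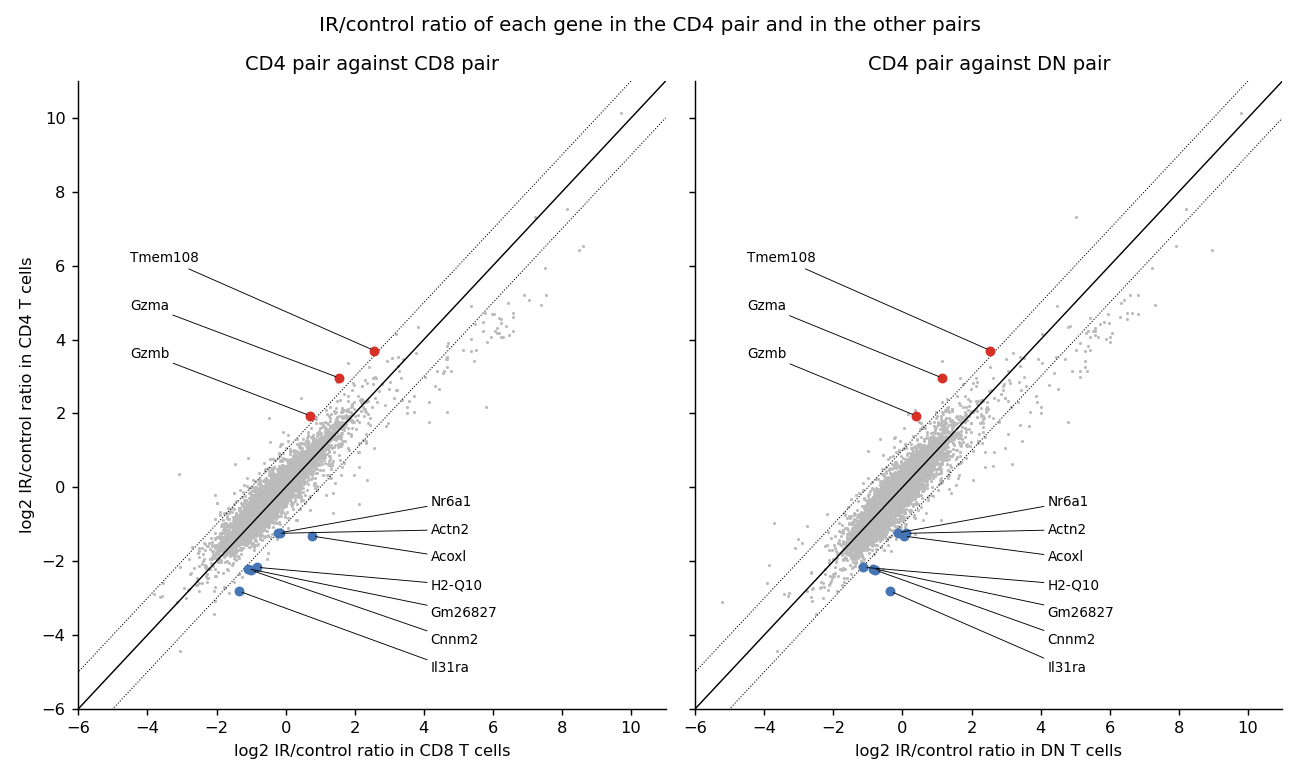
Each point is a gene measured in all 3 pairs, with the log2 ratio of IR to control in CD4+ cells on 1 axis and in CD8+ cells (left) or DN cells (right) on the other; the solid line marks equal ratios and the dotted lines a distance of 1 on the log2 scale. The cloud follows the line in both panels, the 3 genes in red (rise larger in CD4+) and the 7 in blue (fall larger in CD4+) lie beyond the dotted lines in both, and the grey points below the lower line at high ratios include 50 genes that rose less in CD4+ than in both other fractions.

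A change was called larger in CD4+ cells when the gene rose or fell in CD4+ cells and its log2 ratio lay at least 1 beyond that of both the CD8+ and the DN pair. Only 3 of 8580 genes met this for a rise (0.035%) and 7 for a fall (0.0816%). The same rule centred on the CD8+ pair named 6 rises and 19 falls, and centred on the DN pair 10 and 10, so CD4+ cells did not stand out by the number of such genes. The 3 rises were Gzma, Gzmb and Tmem108, and the 7 falls Il31ra, Acoxl, Cnnm2, Gm26827, Nr6a1, H2-Q10 and Actn2. No gene at 50 CPM or more moved past 2-fold in CD4+ cells while both other pairs moved past 2-fold the opposite way.

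The promoters of 9 of these 10 genes were found in a RefSeq promoter table of build GRCm38.p6, and Gm26827 had no entry. The 250 bases before the start are shown for the 3 immune genes whose values the comparison turns on, read 5′ to 3′ on the gene's strand, in lower case with matches to 2 of the motifs searched in capitals (AP-1, TGANTCA, STAT, TTCNNNGAA) as well as the short KLF motif CACCC. Gzma, granzyme A, lies on the minus strand of chromosome 13 and its window is chr13:113100982-113101231. Gzmb, granzyme B, lies on the minus strand of chromosome 14 and its window is chr14:56262335-56262584. Il31ra, a receptor chain for interleukin 31, lies on the minus strand of chromosome 13 and its window is chr13:112580663-112580912, which is before the start RefSeq lists and inside the longer span of the gene in GENCODE M21, 112519898 to 112594360.
Gzma: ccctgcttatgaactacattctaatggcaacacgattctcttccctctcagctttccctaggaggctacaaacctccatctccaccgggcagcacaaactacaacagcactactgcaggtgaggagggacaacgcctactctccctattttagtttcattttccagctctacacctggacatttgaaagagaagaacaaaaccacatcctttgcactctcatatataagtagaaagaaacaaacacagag
Gzmb: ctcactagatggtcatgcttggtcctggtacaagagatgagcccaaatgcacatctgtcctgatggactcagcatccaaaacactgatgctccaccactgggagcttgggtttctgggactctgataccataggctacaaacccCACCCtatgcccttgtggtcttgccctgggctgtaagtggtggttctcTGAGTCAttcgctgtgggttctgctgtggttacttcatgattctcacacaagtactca
Il31ra: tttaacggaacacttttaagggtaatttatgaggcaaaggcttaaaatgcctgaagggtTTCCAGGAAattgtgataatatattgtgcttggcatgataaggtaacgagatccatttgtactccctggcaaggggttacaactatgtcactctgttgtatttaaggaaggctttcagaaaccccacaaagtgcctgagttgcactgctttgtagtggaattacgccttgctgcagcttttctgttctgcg
The shown Gzma stretch held no match. That of Gzmb held the KLF motif 106 bases and the AP-1 motif 58 bases before the start, and that of Il31ra the STAT motif 191 bases before the start.

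Both strands of the full windows, from 250 bases before to 50 bases after the start, were searched, 32851 windows in all. The 9 genes had 11 windows, with 2 each for Nr6a1 and Tmem108. The KLF motif CACCC was in 57.5% of all windows and in 9 of the 11, which leaves out that of Il31ra and 1 of those of Nr6a1. The STAT motif TTCNNNGAA was in 8.30% of all windows and in 4 of the 11, those of Gzmb and Il31ra and 1 each of Nr6a1 and Tmem108. The AP-1 motif TGANTCA was in 7.81% of all windows and, among the 11, in that of Gzmb, and the CRE motif TGACGTCA was in 1.79% and in 1 of those of Nr6a1. The FOXO motif GTAAACA (3.65% of all windows) and the TCF motif CTTTGAA (5.14%) were in none of the 11. A match is a run of letters, not a shown binding site.

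Among the 3 rises granzyme A had the largest excess with the cells and totals used here, but this order did not hold under every setting. Gzmb exceeded it without barcodes carrying UMIs of other cell types, without the top 5% of barcodes, with cells thinned and as a mean over cells, and Tmem108 after centring by intronic length and without the top 5% of barcodes. Gzma stood at 11.3 CPM [10.5 to 12.2] in control CD4+ cells and 88.1 CPM [83.8 to 92.6] in IR CD4+ cells, 240 CPM in control CD8+, 705 CPM in IR CD8+, 76.6 CPM in control DN and 170 CPM in IR DN cells. Gzma was thus lowest in CD4+ cells in both conditions, and IR CD4+ cells came above control DN cells but stayed below both CD8+ libraries. The rise was 7.78-fold in CD4+ cells (log2 ratio 2.96 [2.83 to 3.09]), against log2 ratios of 1.55 in CD8+ and 1.15 in DN cells, an excess of 1.41. The gene spans 113093825 to 113100981 on the minus strand of chromosome 13.

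Few CD4+ cells carried Gzma. In the control CD4+ library 65 cells (0.683%) held its 665 UMIs, with 149 in a single cell and 80.3% in the 10 richest cells. In the IR CD4+ library 140 cells (1.36%) held 1548 UMIs, with at most 78 in a cell and 39.5% in the 10 richest. Thinned to 500 retained UMIs per cell, which put all cells at equal depth and left none out, 0.22% of control and 0.90% of IR CD4+ cells had a Gzma UMI, against 3.82% and 6.17% of CD8+ cells and 1.40% and 1.59% of DN cells. Leaving out the top 5% of barcodes by UMIs brought the Gzma excess to 0.80, and leaving out barcodes with UMIs of other cell types brought it to 0.72, both under the limit of 1, so the call depended on those barcodes.

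The Gzma-positive cells of the IR CD4+ library more often had UMIs of other cytotoxic genes than its Gzma-negative cells. Ccl5, a chemokine of effector T cells, had a UMI in 94.3% of them and in 44.3% of the cells without Gzma, Nkg7, a granule protein, in 85.0% and 37.7%, and Klrd1, a lectin-like receptor, in 43.6% and 13.9%. Gzmb was found in 30.7% of Gzma-positive and 3.62% of Gzma-negative cells. Cd4 was found in 26.4% and 19.8%, and neither Cd8a nor Cd8b1 had a UMI in any of the 140 cells, which at a limit of 3 counts allows a share of cells with a UMI of up to 2.14%. Ncr1, a receptor of natural killer cells, had a UMI in 2.14% of them and in 0.0098% of the cells without Gzma. In the control CD4+ library, where 65 cells were Gzma-positive, Klrd1 was found at like shares in Gzma-positive (16.9%) and Gzma-negative (16.6%) cells, Nkg7 in 86.2% and 75.8%, Ccl5 in 83.1% and 62.5%, and Gzmb in 24.6% and 3.29%. Cd8b1 was found there in 4.62% of the Gzma-positive and 1.89% of the Gzma-negative cells, and Ncr1 in 1.54% and 0.021%. These shares are at the full depth of each library, where the median was 2611 UMIs in the positive and 2438 in the negative IR CD4+ cells, and 8153 and 7264 UMIs in those of control.

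Granzyme B followed the same order. Gzmb stood at 14.4 CPM [13.4 to 15.4] in control and 55.0 CPM [51.6 to 58.6] in IR CD4+ cells, at 173 and 283 CPM in CD8+ cells, and at 69.9 and 91.8 CPM in DN cells. CD4+ cells were again lowest in each condition, and here IR CD4+ cells stayed below control DN cells. Gzmb rose 3.82-fold in CD4+ cells (log2 ratio 1.93 [1.80 to 2.07]) and did not reach 2-fold in CD8+ (0.71) or DN cells (0.39), an excess of 1.22. It was less concentrated than Gzma, with 845 UMIs over 327 control cells (3.44%) and 967 UMIs over 411 IR cells (3.99%). At equal depth 0.43% of control and 1.60% of IR CD4+ cells had a Gzmb UMI, against 5.64% and 6.22% of CD8+ and 2.66% and 3.27% of DN cells. Over the 12 other ways of choosing and scaling the cells its excess ran from 1.05 to 1.91, past the limit in each. The gene spans 56258838 to 56262260 on the minus strand of chromosome 14.

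Tmem108, a transmembrane protein gene on chromosome 9, came from a low level. It was 1.77 CPM in control and 23.0 CPM in IR CD4+ cells (log2 ratio 3.70 [3.39 to 4.03]), 26.3 and 155 CPM in CD8+ cells (2.56) and 5.06 and 29.5 CPM in DN cells (2.54). All 3 fractions rose past 2-fold, and CD8+ cells held the highest levels. Its excess of 1.14 ranged from 0.71 without barcodes carrying UMIs of other cell types to 1.37 after centring by intronic length, and was under 1 in 4 of the 12 other settings.

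**Figure D2:**
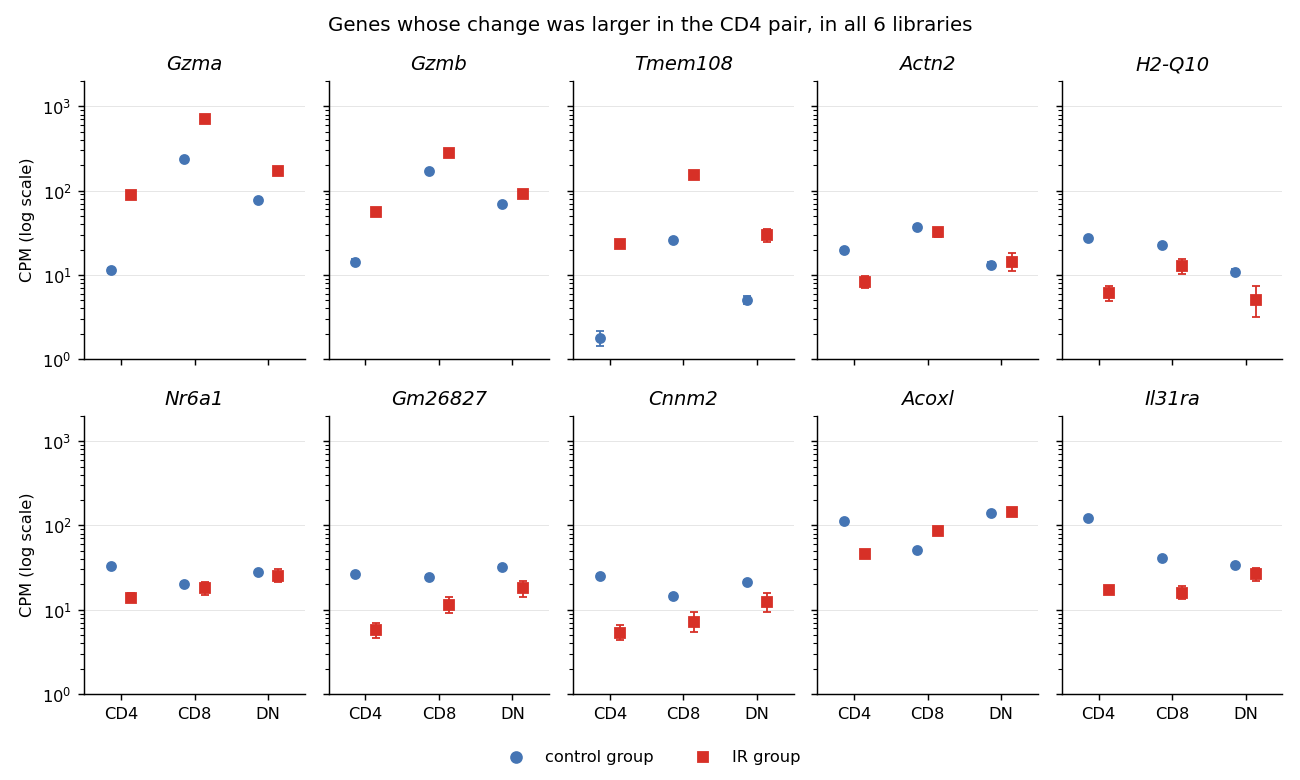
Levels of the 10 genes whose change was larger in CD4+ cells, in CPM on a log axis, in each of the 6 libraries; points are summed levels and bars exact 95% Poisson intervals, which cover counting error only. Gzma and Gzmb climb in CD4+ cells from 11.3 and 14.4 CPM toward the levels of the other fractions, while Il31ra drops in CD4+ cells from 121 to 17.2 CPM, about the level of IR CD8+ cells (16.0 CPM).

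Il31ra was the fall with the largest excess with the cells and totals used here, although under some other settings Acoxl, Cnnm2, Gm26827 or Nr6a1 exceeded it. It stood at 121 CPM [118 to 124] in control and 17.2 CPM [15.4 to 19.3] in IR CD4+ cells, at 40.8 and 16.0 CPM in CD8+ cells and at 33.8 and 26.4 CPM in DN cells. Control CD4+ cells were the high library, and the other 5 lay between 16.0 and 40.8 CPM. The level fell 7.03-fold in CD4+ cells (log2 ratio -2.81 [-2.98 to -2.65]), against log2 ratios of -1.35 in CD8+ and -0.36 in DN cells, an excess of -1.46 that ran from -1.76 to -1.15 over the other settings. Unlike the granzymes it was spread over many cells: 4519 control CD4+ cells (47.5%) held 7116 UMIs, and 259 IR CD4+ cells (2.51%) held 303, of which 1 cell held 38. At equal depth the share went from 5.97% to 0.56% in CD4+ cells, from 2.50% to 0.73% in CD8+ cells and from 1.87% to 1.39% in DN cells.

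Of the other falls, Acoxl, a gene similar in sequence to peroxisomal acyl-CoA oxidases, was the most abundant. It went from 114 to 45.5 CPM in CD4+ cells (log2 ratio -1.32 [-1.43 to -1.22]), from 50.8 to 86.3 CPM in CD8+ cells (0.76) and from 140 to 143 CPM in DN cells (0.03). CD4+ cells were the only fraction in which Acoxl was lower after ischemia, and control CD4+ and both DN libraries formed the high group. Cnnm2, a gene of magnesium transport, went from 25.3 to 5.35 CPM in CD4+ cells (-2.24), and its log2 ratios were -1.01 in CD8+ and -0.79 in DN cells. Nr6a1, an orphan nuclear receptor, went from 32.7 to 13.9 CPM in CD4+ cells (-1.23), while the log2 ratios were -0.17 in CD8+ and -0.14 in DN cells.

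Gm26827, an antisense noncoding gene on chromosome 7, went from 26.2 to 5.69 CPM in CD4+ cells (-2.20), with -1.10 in CD8+ and -0.86 in DN cells. Actn2, an alpha-actinin of the cytoskeleton, went from 19.5 to 8.19 CPM (-1.25), with -0.23 in CD8+ and 0.11 in DN cells. H2-Q10, a class Ib histocompatibility gene, went from 27.1 to 6.03 CPM (-2.17), with -0.84 in CD8+ and -1.13 in DN cells, but its reads are hard to separate from those of its close paralogs, so the value is uncertain. H2-Q10 and Actn2 lay just inside the limit, with excesses of -1.03 and -1.02. Over the 12 other ways of choosing and scaling the cells the call of a larger fall was lost in 7 for H2-Q10, 4 for Actn2, 2 each for Gm26827 and Nr6a1, 1 for Acoxl and 0 for Cnnm2 and Il31ra. Just outside it lay Ifngas1, a noncoding neighbour of Ifng named after its values were seen, which went from 61.2 to 5.63 CPM in CD4+ cells (-3.44), with -2.07 in CD8+ and -2.50 in DN cells.

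Gene length ran alongside the ratios in every fraction. Genes measured in all pairs were split into 10 groups of 857 or 858 by their bases in introns. The group with the shortest introns (median 620 bases) had a median log2 ratio of 0.43 in CD4+, 0.19 in CD8+ and 0.30 in DN cells. The group with the longest (median 166429 bases) had -0.98, -0.95 and -0.76. Il31ra has 68790 and Acoxl 281819 intronic bases. With ratios centred within bins of intronic length, Il31ra (log2 ratio -2.11), Cnnm2 (-1.35), Gm26827 (-1.51) and H2-Q10 (-2.61) still fell past 2-fold in CD4+ cells, while Acoxl (-0.20), Nr6a1 (-0.11) and Actn2 (-0.55) did not. Gzma (2.87), Gzmb (1.62) and Tmem108 (4.83) kept their rises on this scale. What links length to the ratios was not tested.

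Outside the genes measured in all pairs, 83 were measured in CD4+ cells only, of which 18 rose and 21 fell. Another group was measured in CD4+ and 1 other pair, with 80 rises and 85 falls. A gene near the limit of 10 CPM can pass it only through the library where it is high. These counts are therefore not to be set beside the shares over all genes. Only 5 of the 83 reached 25 CPM. Cxcl2, a chemokine that attracts neutrophils, went from 0.988 to 26.3 CPM in CD4+ cells (log2 ratio 4.74), and among the other IR libraries it stood at 2.44 CPM (CD8+) and 7.06 CPM (DN). Pdlim4, an actin-associated protein, went from 5.83 to 26.6 CPM (2.19) and was at most 0.677 CPM in the other fractions. St8sia6, a sialyltransferase, was 35.3 and 26.6 CPM (-0.41), and the remaining genes of the 5 were Foxp3 and Cd4, given above. Cd200, a surface ligand carried by some helper and regulatory cells, went from 7.48 to 66.1 CPM in CD4+ cells (3.14) and from 4.07 to 17.0 CPM in CD8+ cells (2.07), and was 2.59 and 1.87 CPM in DN cells.

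Set against 1 other fraction at a time, more genes stood apart. Of 8760 genes measured in the CD4+ and CD8+ pairs, 16 rises (0.183%) and 18 falls (0.205%) were larger in CD4+ cells by at least 1 on the log2 scale, and of 8815 measured in the CD4+ and DN pairs 30 rises (0.34%) and 20 falls (0.227%). The genes named in this paragraph were chosen after their values were seen. Ccrl2, an atypical chemokine receptor, went from 15.8 to 84.8 CPM in CD4+ cells (2.42), with 0.43 in CD8+ and 2.96 in DN cells, and Ier5l, an immediate early response gene, from 9.93 to 36.4 CPM (1.87), with -0.49 and 2.61. In these the DN pair moved at least as far as the CD4+ pair. Against DN cells, Trib2, a pseudokinase, went from 37.2 to 147 CPM in CD4+ cells (1.98), with 1.20 in CD8+ and 0.16 in DN cells, and Tnfsf8, the CD30 ligand, from 39.3 to 84.1 CPM (1.10), with 0.39 and -0.25. Among the falls, Cmss1 went from 6967 to 319 CPM in CD4+ cells (-4.45), with -3.07 in CD8+ and -3.64 in DN cells. At an excess of 0.5 in place of 1 over both pairs, 25 rises and 28 falls were listed, among them Rasgrp2, an activator of the small GTPase Rap1, from 39.2 to 172 CPM (2.14, with 1.46 and 1.29), and Sgk1, a kinase, from 36.5 to 127 CPM (1.80, with 1.30 and 1.21).

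The gene lists below are described by how many of their measured members rose or fell, beside the 7.26% and 14.4% over all genes, and by medians over the members measured in all 3 pairs, given in the order CD4+, CD8+ and DN. The median over all genes was -0.27, -0.39 and -0.27 over the genes measured in each pair.

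Genes of naive or recirculating cells were the list with the most rises. Of 14 measured, 8 rose and none fell, with a median log2 ratio of 1.39, and over the 11 measured in all pairs the medians were 0.81, 0.56 and 0.03. Besides Ccr7, Klf2, a transcription factor that maintains the egress receptor, went from 403 to 1949 CPM in CD4+ cells (2.27) with 2.22 in CD8+ and 1.63 in DN cells. S1pr1, that egress receptor, went from 63.6 to 269 CPM (2.08), with 1.78 in CD8+ and 0.37 in DN cells. Igfbp4, an insulin-like growth factor binding protein carried by naive CD4+ cells, went from 33.9 to 213 CPM (2.65), with 2.10 in CD8+ cells, and was at most 2.49 CPM in DN cells. S1pr1 thus rose in CD4+ and CD8+ cells and not in DN cells, at 32.6 and 42.1 CPM there. Lef1, a transcription factor of naive and stem-like cells, was 445 and 420 CPM and did not change past 2-fold.

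Of 15 measured genes of effector memory or tissue-resident cells none rose, 4 fell and 11 were within 2-fold, with medians of -0.15, -0.25 and -0.33, against -0.27 over all genes measured in CD4+ cells. Itga1, the collagen-binding integrin CD49a, went from 249 to 48.9 CPM in CD4+ cells (-2.34), with -2.76 in CD8+ and -1.48 in DN cells. Cxcr6, a chemokine receptor of resident cells, went from 772 to 278 CPM (-1.48), with -2.15 and -1.24. Itgb1, the integrin partner of Itga1, went from 1078 to 467 CPM (-1.21), and Cd44, the hyaluronan receptor, from 342 to 165 CPM (-1.05), with -1.19 in CD8+ and -0.43 in DN cells. Cd69, which retains cells in tissue and is induced on activation, was 421 and 464 CPM. Cd44 and Itgb1 were within 2-fold once ratios were centred for intronic length.

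Among regulatory T cell genes 4 of 13 rose and none fell, with a median of 0.79, and medians of 0.49, 0.11 and 0.31 over the 8 measured in all pairs. Areg, a tissue repair growth factor, went from 4.33 to 17.2 CPM in CD4+ cells (1.99) and was not measured in the other pairs. Ikzf4 (Eos), a factor of the Ikaros family, went from 6.64 to 22.8 CPM (1.78). Tnfrsf4 (OX40) went from 68.4 to 180 CPM (1.40), with 1.71 in DN cells, and Tnfrsf9 (4-1BB) from 40.6 to 104 CPM (1.36), with 0.81 in CD8+ and 1.52 in DN cells, and both are also induced on conventional activated cells. The better known members stayed within 2-fold: Ctla4 was 144 and 250 CPM, Il2ra 48.3 and 59.6 CPM, and Ikzf2 (Helios) 395 and 207 CPM (-0.93). Ikzf2 passed 2-fold (-1.28) with mitochondrial and ribosomal genes and Malat1 in the totals and was near 0 (-0.041) once centred for intronic length, where Ctla4 passed 2-fold (1.14).

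The Th1 list leaned down. Of 13 measured, 1 rose and 6 fell, with medians of -0.99, -1.36 and -0.25 over 12 members. Tbx21, the Th1 master regulator T-bet, went from 293 to 89.8 CPM in CD4+ cells (-1.71), with -1.74 in CD8+ and -1.32 in DN cells. Il12rb2 and Il12rb1, the chains of the interleukin 12 receptor, went from 300 to 91.3 CPM (-1.72) and from 36.2 to 13.7 CPM (-1.40). Ccl5 was the rise, from 1171 to 3355 CPM (1.52), with 0.96 in CD8+ and 1.69 in DN cells. Ifng, the Th1 cytokine, was 444 and 642 CPM (0.53) and passed 2-fold only in DN cells (1.08). Il12rb2 was within 2-fold once centred for intronic length.

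The other helper lists held few measured genes. Of 4 Th2 genes none rose and 1 fell, Ccr4, from 33.3 to 12.5 CPM, and Gata3, the Th2 regulator, was 171 and 212 CPM. None of 3 measured Th17 genes rose or fell in CD4+ cells, with medians of -0.42, -1.22 and -0.19. Of 9 follicular helper genes 2 rose and 1 fell, with a median of -0.01: the rises were Cd200 and the B cell follicle receptor Cxcr5, from 3.97 to 13.9 CPM (1.81), and the fall was Tox, from 494 to 197 CPM (-1.32). Of 9 innate-like and NKT genes 3 rose and 1 fell. Zbtb16, the NKT regulator PLZF, went from 217 to 73.2 CPM (-1.57), and Klrd1 from 71.0 to 151 CPM (1.09), with 1.50 in CD8+ and 0.85 in DN cells. The other rises were the signalling adaptors Fcer1g, from 12.9 to 26.7 CPM (1.05), and Tyrobp, from 5.79 to 13.1 CPM (1.18). Both were within 2-fold under 6 of 12 other settings, and without barcodes carrying UMIs of other cell types Fcer1g was 0.50 and Tyrobp -0.35. Once centred for intronic length Tox (-0.20) and Zbtb16 (-0.44) were within 2-fold, and Klrd1 (0.998) was just under it, as it was within 2-fold (0.75) with mitochondrial and ribosomal genes and Malat1 in the totals. Of 4 measured gamma delta T cell genes none rose and 1 fell, and the summed level of that list was 144 CPM in control and 103 CPM in IR CD4+ cells.

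**Figure D3:**
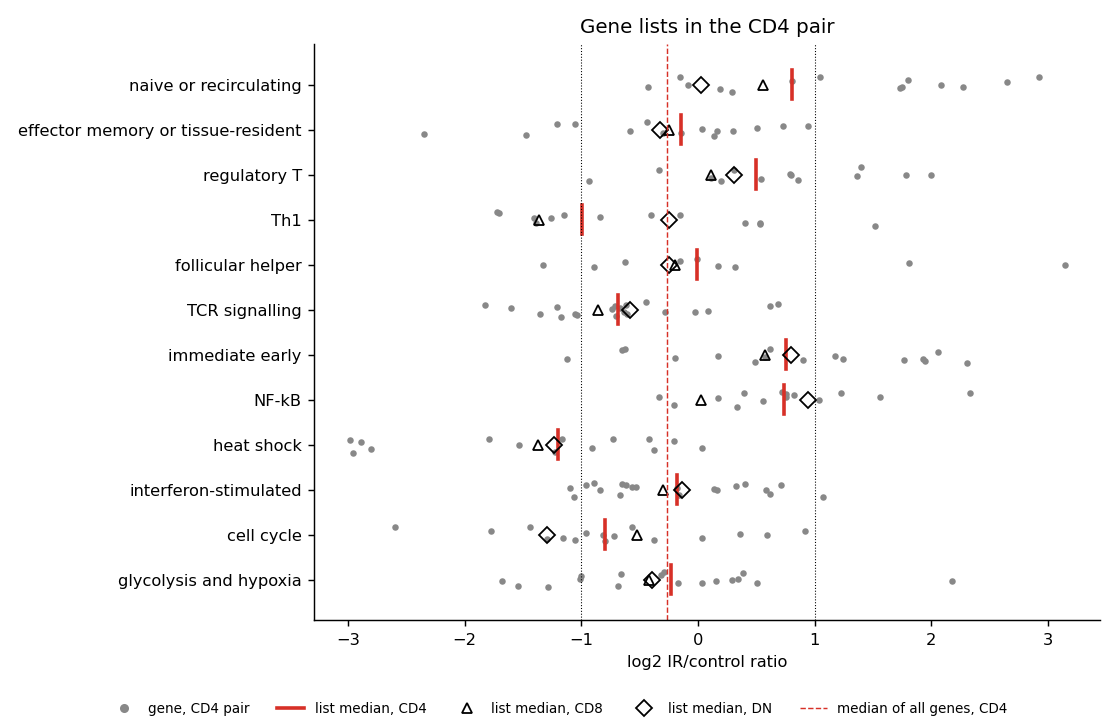
Log2 ratios of IR to control for 12 gene lists; grey points are the genes measured in CD4+ cells, the red bar the CD4+ median, and the triangle and diamond the CD8+ and DN medians over the members measured in all pairs, with the dashed line at the median of all genes (-0.27) and dotted lines at 2-fold. The naive list sits at medians of 0.81, 0.56 and 0.03, the NF-kB list at 0.74, 0.03 and 0.95, and the heat shock list at -1.20, -1.37 and -1.23.

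Among receptors, 2 of 16 cytokine receptors rose and 2 fell, with a median of -0.12. Il7r rose, and Ifngr2, the interferon gamma receptor subunit, went from 8.29 to 70.9 CPM in CD4+ cells (8.55-fold), with 7.9-fold in CD8+ cells. Tgfbr1, the transforming growth factor beta receptor, went from 119 to 36.5 CPM (-1.70). Of 11 chemokine receptors 3 rose and 5 fell, with a median of -0.59. Cxcr4, the receptor for CXCL12, went from 36.1 to 183 CPM (2.35), with 1.80 in CD8+ and 2.14 in DN cells. Of 14 costimulatory and coinhibitory genes 2 rose and 2 fell, with medians of -0.25, -0.78 and -0.25. The falls were Cd226 (DNAM-1), from 1021 to 274 CPM (-1.90), and Cd200r1, from 57.8 to 14.9 CPM (-1.95). Cd40lg, the helper ligand of CD4+ cells, was 356 and 242 CPM (-0.56) and stayed within 2-fold in CD4+ and DN cells (-0.50), while it fell in CD8+ cells (-1.67).

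T cell receptor signalling genes were lower as a group, with 7 of 20 fallen and none risen and medians of -0.68, -0.85 and -0.58. Themis, an adaptor of the T cell receptor, went from 886 to 249 CPM in CD4+ cells (-1.83), Rasgrp1, an activator of Ras, from 312 to 122 CPM (-1.35), and the kinase Fyn from 708 to 306 CPM (-1.21). None of these 3 stayed past 2-fold when ratios were centred for intronic length.

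Some immediate early genes and NF-kB targets rose. Of 16 immediate early genes 7 rose and 1 fell, with medians of 0.76, 0.58 and 0.80. Junb, an AP-1 subunit, went from 1976 to 8246 CPM in CD4+ cells (2.06), Nr4a1, an orphan receptor induced by T cell receptor signals, from 56.8 to 281 CPM (2.30), and Dusp1, a phosphatase of MAP kinases, from 450 to 1712 CPM (1.93), with 1.25 in CD8+ and 2.33 in DN cells. Of 14 NF-kB genes 4 rose and none fell, with medians of 0.74, 0.03 and 0.95. Nfkbia, the inhibitor IκBα, went from 450 to 2262 CPM (2.33), with 1.50 in CD8+ and 2.20 in DN cells. Tnfaip3 (A20) went from 515 to 1205 CPM (1.23), with 0.65 and 1.74, and Nfkb2 from 41.8 to 86.0 CPM (1.04), with 0.12 and 1.46. Bcl3 went from 19.1 to 56.4 CPM (1.57), with 1.41 and 0.95. Tnfaip3 and Nfkb2 were within 2-fold when mitochondrial and ribosomal genes and Malat1 stayed in the totals.

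Heat shock genes were lower in every fraction. None of 14 rose in CD4+ cells and 8 fell, as 8 did in CD8+ and 9 in DN cells. The inducible chaperone Hspa1a went from 1085 to 140 CPM (-2.96), with -3.58 in CD8+ and -3.33 in DN cells, and its neighbour Hspa1b from 1686 to 228 CPM (-2.88). Both genes are near-identical in sequence, so their counts cannot be fully separated. Hsph1 went from 441 to 63.2 CPM (-2.80) and the cochaperone Bag3 from 111 to 14.1 CPM (-2.98).

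Cell cycle genes fell or stayed within 2-fold, with none of 16 risen and 6 fallen and medians of -0.80, -0.52 and -1.30 over 15 members, although the summed level of the list was 2479.7 CPM in control and 2814 CPM in IR CD4+ cells. Mki67, the proliferation marker Ki-67, went from 72.7 to 12 CPM in CD4+ cells (-2.60), with -2.41 in CD8+ and -3.91 in DN cells, and Pclaf, a PCNA-associated factor, from 54.4 to 15.9 CPM (-1.77), with -0.51 and -1.78. Of 20 interferon-stimulated genes 1 rose and 2 fell, with a median of -0.35. The rise was Ifi27l2a, from 680 to 1427 CPM (1.07), with 0.69 in CD8+ and 0.05 in DN cells, which was within 2-fold when the removed genes stayed in the totals. Of 17 glycolysis and hypoxia genes 1 rose and 4 fell, with a median of -0.29. Hexokinase 2, Hk2, went from 6.51 to 29.5 CPM (2.18), with 1.29 and 1.31, and the glucose transporter Slc2a1 from 95.7 to 29.9 CPM (-1.68). Of 17 survival and death genes 3 rose and 2 fell, with a median of 0.11: Bbc3 (PUMA) went from 17.2 to 75.5 CPM (2.13), the death receptor Fas from 37.8 to 94.0 CPM (1.31), Bax from 134 to 295 CPM (1.14) and Pmaip1 (NOXA) from 54.5 to 22.1 CPM (-1.30). Fas (0.97) and Bax (0.80) were within 2-fold with the removed genes in the totals.

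Markers of other cells moved with the condition as well. The 14 myeloid genes summed to 119 CPM in control and 242 CPM in IR CD4+ cells, and 4 of the 5 measured rose. In the control library 2 of the 14 were at 0 and in the IR library none. C1qa, a complement gene of macrophages, went from 5.40 to 23.7 CPM, and S100a9, a calcium-binding protein of neutrophils and monocytes, had no UMI in the control CD4+ library and 10.1 CPM in IR, at least 197-fold higher against a floor of 3 counts in the library. The 7 erythroid and platelet genes summed to 2.37 CPM in control and 218 CPM in IR CD4+ cells, and all 4 measured rose. Both measured genes of the 15 kidney tubule genes rose, and the list summed to 8.40 and 87.5 CPM. Spp1, osteopontin, went from 1.09 to 62.0 CPM, and Lcn2, a secreted lipocalin, had no UMI in control and 13.3 CPM in IR CD4+ cells, at least 261-fold higher against the same floor. The B cell genes summed to 187 and 173 CPM with the 1 measured gene within 2-fold, and the 1 measured endothelial and stromal gene was within 2-fold. Of 6 antigen presentation genes none rose and 1 fell, with a median of -0.17. Of 5 measured natural killer cell genes 2 rose, Gzma and Gzmb, and none fell, and the summed level of that list was 872 and 832 CPM. Prf1, the perforin gene of that list, was lower but within 2-fold (-0.71). It passed 2-fold (-1.05) with mitochondrial and ribosomal genes and Malat1 in the totals. The part of these cells in the results was not tested. Without barcodes with at least 2 UMIs of myeloid, B cell, erythroid or platelet genes, Gzmb (1.27) and Il31ra (-1.15) kept excesses past 1. Gzma (0.72), Tmem108 (0.71) and Actn2 (-0.96) did not. That step removed 42.4% of control and 13.2% of IR CD4+ cells. A deeper cell reaches 2 such UMIs more easily, so the step cannot separate other cells from depth.

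Shares of cells were compared at equal depth, with each cell thinned to 500 retained UMIs. A Ccr7 UMI was found in 1.62% [1.37 to 1.89] of control and 10.5% [9.88 to 11.1] of IR CD4+ cells, against 0.04% and 0.38% of DN cells, which set the level of a fraction that largely lacks the gene. Without thinning the shares were 7.94% and 20.7%. S1pr1 went from 3.16% to 11.5% and Il7r from 10.6% to 30.9%. Lef1 was at 18.3% and 18.2%, with overlapping intervals. In CD8+ cells Ccr7 went from 3.93% to 24.6%, so CD8+ cells held the larger share in both conditions.

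Foxp3 was found in 0.83% of control and 1.15% of IR CD4+ cells, with overlapping intervals, against 0 to 0.02% of cells in the CD8+ and DN libraries. Ctla4 went from 5.47% to 8.41% and Ikzf2 from 11.7% down to 6.58%. Cxcr6 went from 29.7% to 10.9%, Cd44 from 15.2% to 6.85%, Zbtb16 from 7.63% to 3.44% and Kcnq5, a potassium channel, from 32.5% to 12.7%, although Kcnq5 is a long gene whose log2 ratio of -1.85 was -0.72 once centred for intronic length. Cd40lg went from 16.3% to 10.1% and Ifng from 16.0% to 20.2%. For Il2ra (1.89% and 2.42%), Icos (14.7% and 14.3%), Cd69 (17.6% and 18.6%), Pdcd1 (1.30% and 1.36%) and Gata3 (8.35% and 9.34%) the intervals overlapped. Such overlap, here as for Foxp3 and Lef1, does not show that the shares were equal. Cd4 itself was found in 10.4% and 6.82%, against 0.01% to 0.03% of CD8+ and DN cells, and Cd8a in none of either, which at a limit of 3 counts allows shares of up to 0.0315% and 0.0291%. Lyz2, a myeloid gene (0.05% and 0.08%), and Cd79a, a B cell gene (0 of 9518 control cells, which at the same limit allows up to 0.0315%, and 0.06%) were near 0 in both, so no difference was detectable at this depth.

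**Figure D4:**
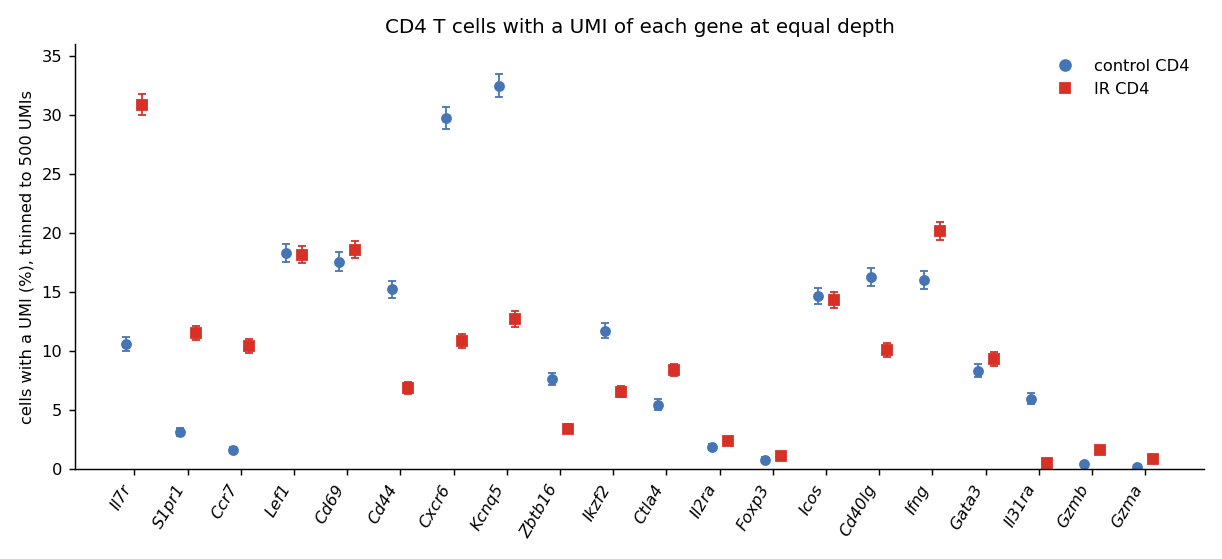
Shares of CD4+ cells with at least 1 UMI of each of 20 genes after thinning every cell to 500 retained UMIs, in the control and the IR library, with exact 95% Clopper-Pearson intervals. Il7r (10.6% to 30.9%) and Ccr7 (1.62% to 10.5%) move up, Cxcr6 (29.7% to 10.9%) and Kcnq5 (32.5% to 12.7%) move down, and Lef1 is at 18.3% and 18.2%.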

How the data were processed

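T cells sorted from mouse kidney were profiled in 6 droplet libraries, 1 for each of control and IR CD4+, CD8+ and DN T cells. The authors aligned the reads to mm10 with Cell Ranger at default settings and deposited filtered matrices of UMI counts per gene and barcode. The headers name Cell Ranger 5.0.1 for control and 6.0.1 for IR, and the submitters' processing notes name 6.0.1.

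Every value column of the deposited matrices was used (0 columns not used). Barcodes were filtered on 500 genes, 20% mitochondrial UMIs and 1 Cd3d, Cd3e or Cd3g UMI. Doublets were left in, and removal of the 5% of barcodes with the most UMIs, as in the study, was an alternative. As in the study, 103 features (mitochondrial genes, ribosomal protein genes and Malat1) were taken out before scaling. UMIs were summed per library and expressed as CPM. A gene was measured at 10 CPM in 1 library of a pair, and a count of 0 was set to 3 counts in ratios, which is 0.0511 CPM in control and 0.171 CPM in IR CD4+ cells. Cells were thinned to 500 retained UMIs for shares, and 0 cells were shallower. With 1 library per group there was no test, and intervals are exact. Gene positions, types and intron lengths came from GENCODE M21, in which 32235 of 32285 features matched, and promoters from RefSeq.

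Genes named were the 3 given markers and the sort genes, up to 12 genes in each direction whose change was larger in CD4+ cells at 25 CPM or more, up to 5 in each direction measured in CD4+ cells only, up to 4 per list by absolute log2 ratio, the genes of the share comparison, and genes moving oppositely in the other pairs at 50 CPM or more. All 10 genes whose change was larger in CD4+ cells are given, so those under 25 CPM (Tmem108 and Actn2) and genes of lists beyond the 4 were added after their values were seen. The members and the 28 gene lists were chosen with earlier results of these data known. Mx1 and Aldoa were not matched by symbol. Values of some list members, and a split of the CD4+ cells that used such a member, are not reported here.

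Python 3.11.15, numpy 2.4.6, scipy 1.17.1, pandas 2.3.3 and matplotlib 3.10.9 were used, with R 4.3.3 and edgeR 4.0.16 for the alternative TMM scaling. The scripts were tested on simulated data.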

Additional observations from a re-analysis of the deposited data

Results flagged for a closer look

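Barcodes that passed the gene and mitochondrial filters but had no Cd3d, Cd3e or Cd3g UMI were outside the main comparisons. They entered only the settings without the Cd3 requirement and with all deposited barcodes. In them 3 signals stood above the control level. There were 452 such barcodes in the IR CD4+ library (median 1590 UMIs) and 251 in the control CD4+ library (median 1560.0 UMIs). In this paragraph CPM are scaled to the UMIs of every feature, with nothing taken out of the totals. The levels are therefore not on the scale of the main comparisons. How far this scaling shifts IR against control barcodes was not tested. Myeloid genes summed to 2173 CPM [2069 to 2281] in the IR barcodes, against 1380.0 CPM in the control barcodes. Kidney tubule genes summed to 1589.9 CPM [1501 to 1683], against 66.9 CPM. Erythroid and platelet genes summed to 70.6 CPM [52.9 to 92.3], against 4.46 CPM. The matching barcodes of the other pairs went another way for myeloid genes, with 3354 CPM in control and 312 CPM in IR for CD8+, and 2470.2 and 544 CPM for DN. Tubule genes stood at 132 CPM in control and 949.9 CPM in IR for CD8+ and at 211 and 123 CPM for DN, and erythroid and platelet genes at 19.5 and 65.6 CPM for CD8+ and at 18.6 and 77.4 CPM for DN. The T cell receptor constant genes Trac, Trbc1 and Trbc2 together stood at 1336 CPM in the IR and 1059 CPM in the control barcodes. What these barcodes contain was not tested.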

How the results depend on the processing

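The counts below are to be read against 659 higher and 1306 lower genes in IR CD4+ cells and 3 rises and 7 falls that were larger in CD4+ cells. With mitochondrial and ribosomal genes and Malat1 kept in the totals, 334 genes were higher and 2491 lower. A minimum of 3 CPM gave 1116 higher genes, 7 larger rises and 13 larger falls, and a minimum of 25 CPM gave 2 larger falls. Centring by intronic length gave 443 lower genes and 4 larger falls. An excess of 0.5 gave 25 larger rises and 28 larger falls. The larger rises were 1 without the 5% of barcodes with the most UMIs, 6 without the Cd3 requirement, 8 with all deposited barcodes and 7 after thinning. The cause of these differences was not tested, except that other minimums and another excess change which genes can be counted. Of 128 named genes, TMM scaling, a mitochondrial limit of 10% and leaving out shared barcodes changed the 2-fold call of 0, and centring by intronic length that of 26. TMM scaling left 6 larger falls, without H2-Q10. Without barcodes carrying UMIs of other cell types 11 calls changed, and the log2 ratio of Tyrobp turned from 1.18 to -0.35. No paired analysis was possible because each group is 1 library and the labels carry no replicate numbers. Depth limits low genes more in the IR libraries, where 3 counts are 0.171 CPM in CD4+, 0.406 CPM in CD8+ and 0.623 CPM in DN cells.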

Other observations

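Some genes rose in every fraction but less in CD4+ cells. By the same distance of 1 on the log2 scale from both other pairs, 50 genes rose less in CD4+ cells and 0 fell less. The genes given here were chosen after their values were seen. Lrp1b, a large receptor of the LDL receptor family, went from 16.2 to 355 CPM in CD4+ cells (log2 ratio 4.46), with 6.23 in CD8+ and 5.98 in DN cells. Prkag2, a subunit of the energy sensor AMPK, went from 34.4 to 218 CPM (2.67), with 4.43 and 4.49. Cntnap2, a neuronal adhesion gene, went from 2.90 to 52.4 CPM (4.18), with 6.12 and 6.06, and Nkain2 from 2.50 to 80.2 CPM (5.00), with 6.45 and 6.33. Lrp1b has 2034605 intronic bases, and these rises run opposite to the median of long genes, which was -0.98 in CD4+ cells for the group with the longest introns. No explanation of these values was tested.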
